A study of Mus musculus with 8 samples.

Results

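The genes described here encode the machinery that licenses replication origins and builds the replication fork. They are 41 genes chosen by symbol: the subunits of the Mcm2-7 helicase and of the origin recognition complex, the loading factors Cdc6 and Cdt1 with the inhibitor Gmnn, the factors that activate the helicase, and the clamp, clamp loader, polymerase, single-strand binding, and ligation genes of the fork. All 41 were among the 24354 genes listed, and all 41 were among the 13239 genes tested. The study asked whether fusing a somatic cell with a pluripotent cell moves the somatic genome to the state of that pluripotent partner, and RNA was sequenced from 8 libraries in 4 groups of 2. ESCs were wild-type cells of the E14 embryonic stem cell line, kept in serum medium with LIF on inactivated C3H embryonic fibroblasts. NSCs were neural stem cells heterozygous for the OG2 transgene, a GFP reporter driven by the Oct4 distal enhancer, and for a ROSA26 lacZ allele, and they were grown on gelatin with EGF and FGF2. EPSCs were extended pluripotent stem cells of the C57BL/6 strain at passage 15, kept in N2B27 medium with LIF, CHIR99021, dimethindene maleate, and minocycline hydrochloride on the same feeder cells. EPSC-NSC hybrid cells, labelled tetraploid, were made by fusing EPSCs and NSCs with polyethylene glycol and were kept at passage 10 under the same conditions as EPSCs. Each group was 1 line, so its p-values measure the spread between repeated libraries and not between derivations or fusions.

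Replication is prepared in G1, when the origin recognition complex, with Cdc6 and Cdt1, loads the Mcm2-7 ring onto DNA as an inactive double helicase, a step known as licensing. Geminin, the product of Gmnn, binds Cdt1 after S phase has begun and prevents a second round of loading. In S phase, Cdc45 and the GINS complex join Mcm2-7 to form the active helicase, DNA polymerase alpha-primase lays down primers, replication factor C loads the PCNA ring, and polymerases epsilon and delta extend the leading and lagging strands. Mouse pluripotent cells are known for a short G1 phase and for loading large amounts of Mcm2-7.

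Levels are FPKM, fragments of a transcript relative to its length and to the size of the library, so levels of different genes can be compared per length. How library size was set is not given in the sources used here. FPKM summed to 600674 to 653796 in the libraries of ESCs, EPSCs, and hybrid cells, but to 415240 and 415412 in the NSC libraries. At the depth derived from the steps between FPKM values, 5 FPKM on a transcript of 2 kb corresponded to 220 to 326 fragments in a library. Within groups, the median ratio of a member between the 2 libraries lay between 1.031 in ESCs and 1.07 in hybrid cells. The 10 pluripotency markers summed to 5322 FPKM in hybrid cells, 5161 in EPSCs, and 5723 in ESCs against 120.6 in NSCs, of which Sox2 made up 118, and the 10 neural stem markers summed to 4815 FPKM in NSCs. The pluripotency sum thus set NSCs apart from the other groups, but it does not tell ESCs, EPSCs, and hybrid cells from each other. Hybrid cells had 613 FPKM of neural stem markers, most of it Vim at 600 FPKM.

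All 41 members were expressed in every group. Their median was 63.5 FPKM in hybrid cells, against 54.0 in EPSCs, 52.2 in ESCs, and 36.0 in NSCs, whereas the median of all genes tested was 9.0 to 10.7 FPKM. Pcna, the sliding clamp, was the highest member in each group, at 278 to 494 FPKM. Gins3, a subunit of the GINS complex, was lowest in the 3 pluripotent groups at 6.25 to 10.8 FPKM, and Orc1 was lowest in NSCs at 4.53 FPKM. Summed over the members, the level was 3559 ± 94.5 FPKM in hybrid cells, against 3478 ± 78.3 in EPSCs, 3124 ± 28.2 in ESCs, and 1894 ± 30.3 in NSCs (SD, n = 2). Per 1000 FPKM of a library, this was 5.50 to 5.64 in hybrid cells, 5.40 to 5.53 in EPSCs, 5.09 to 5.17 in ESCs, and 4.51 to 4.61 in NSCs, a smaller distance. Both NSC libraries lay below the other 6 in 31 members, a pattern found in 39.2% of all genes tested. ESCs held the highest libraries in 7 members (Orc6, Cdt1, Gmnn, Gins2, Gins3, Gins4, and Rfc5) and the lowest in 6 (Rfc1, Rfc2, Rfc4, Pola1, Prim2, and Rpa1), against 16.6% and 17.5% of all genes.

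**Figure D1:**
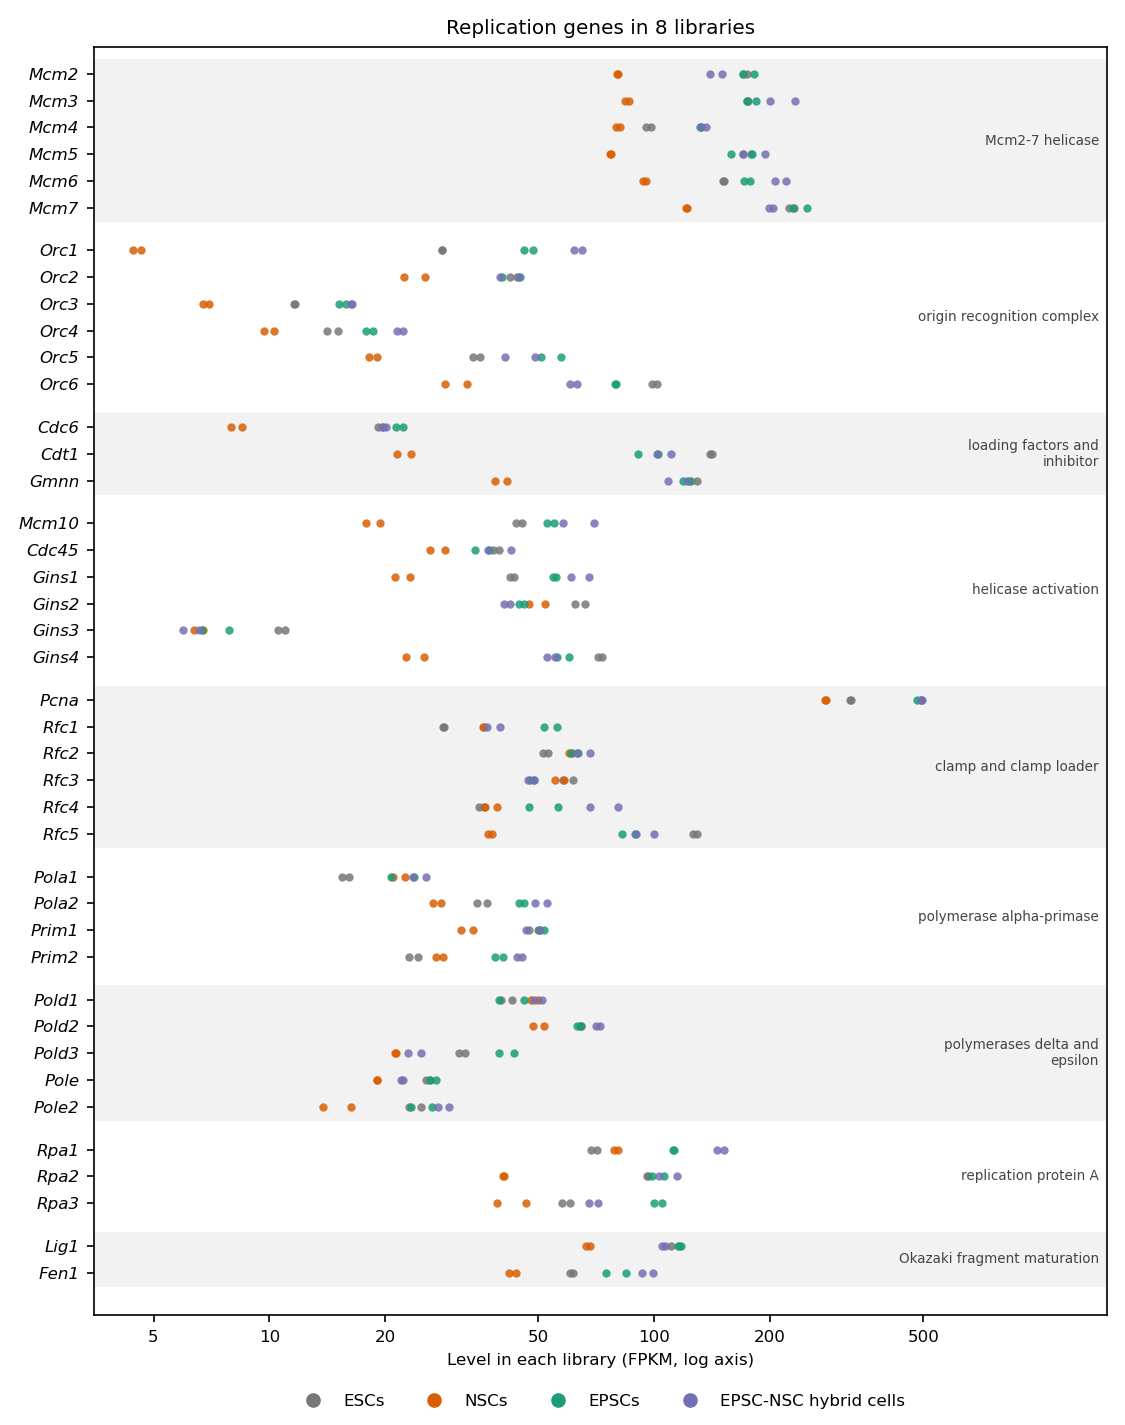
FPKM of the 41 replication genes (log axis) in each of 8 libraries, with genes in rows grouped by complex and 1 point for each library, coloured by group. Both NSC points lie to the left of all others for 31 of the 41 genes, with Orc1 the most distant.

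EPSCs and hybrid cells both expressed most of these genes above the NSC level. In hybrid cells, 33 of the 41 members were higher than in NSCs and 2 were lower (limma on log2(FPKM + 1) with Benjamini-Hochberg adjustment over all genes tested), whereas 44.5% of all genes tested were higher and 42.0% lower. In EPSCs, 35 members were higher than in NSCs and 2 were lower, against 45.2% and 41% of all genes. The median log2 fold change of the members was 0.87 for hybrid cells and 0.81 for EPSCs, against 0.06 and 0.08 over all genes tested. These comparisons share the NSC libraries, so they are not separate evidence. Most differences were moderate: 16 members in each comparison passed the test with an absolute log2 fold change over 1, whereas 47.2% and 46.9% of all genes tested did.

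The scale of the NSC libraries bears on these counts. When every library was scaled to the same sum of FPKM, the median of all genes against NSCs moved to -0.51 for hybrid cells and -0.48 for EPSCs, and the members called became 25 higher and 9 lower for hybrid cells and 24 higher and 7 lower for EPSCs. Over all genes, the calls in hybrid cells against NSCs changed from 5893 higher and 5556 lower to 4013 higher and 7625 lower. Relative to the median of all genes, which a single factor per library hardly moves, the members' median was 0.81 for hybrid cells and 0.74 for EPSCs, and with quantile normalization it was 0.62 and 0.49. Under the scaling to the same sum, the direction turned for Cdc45, Prim1, Pold2, and Pole in hybrid cells and for Cdc45, Rfc1, Rfc4, Prim2, Pold2, Pole, and Rpa1 in EPSCs, among the members called, and of these, Pole in hybrid cells (0.20 to -0.40, adjusted p = 0.000449 by limma) and Pold2 in EPSCs (0.34 to -0.27, adjusted p = 0.00235) were then called lower.

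Between hybrid cells and EPSCs and between EPSCs and ESCs, the members differed less, and hybrid cells were not tested against ESCs. Against EPSCs, 10 members were higher in hybrid cells and 7 were lower, near the background of 22.5% and 21.9% of all genes tested, and no member changed by a log2 value over 1 in either direction, against 3.56% of all genes. The count of higher members fell whichever 1 of the 8 libraries was left out, as did that over all genes. In a fit of these 2 groups alone, the counts were 4 higher and 4 lower, where 14.5% of all genes were higher and 14.6% lower. The calls of Orc1, Mcm6, Rfc4, and Rpa1, which were higher, and of Pold3, Rpa3, Rfc1, and Orc6, which were lower, held in all 14 alternatives, and each of the other 9 was lost in at least 1. Against ESCs, 19 members were higher in EPSCs and 7 were lower, against 33.7% and 27.3% of all genes, and again none exceeded a log2 value of 1, as 9.9% of all genes did. Quantile normalization gave 17 higher and 12 lower there, against 31.0% and 29.1% of all genes. By the rule in the methods of the study, a mean over 3 FPKM and a ratio over 3, no member differed between hybrid cells and EPSCs, where 1.43% of the genes that could pass were higher and 0.755% lower, or between EPSCs and ESCs, where 3.17% were higher and 3.18% lower. Against NSCs, this rule took Orc1, Cdt1, and Mcm10 as higher in hybrid cells, and Orc1, Cdt1, and Gmnn as higher in EPSCs, where 15.2% and 14.8% of the genes that could pass were higher. It took no member as lower, whereas 19.4% and 19.7% of those genes were.

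Promoters of the members were examined for shared letters. RefSeq gives, for GRCm38.p6, the stretch from 250 bases before to 50 bases after the start of a gene, and 33 members matched an entry by symbol. Of these, 6 had 2 or 3 entries for different starts, and a match in any of them was counted, as for all genes. The 5 members printed have 1 entry each, and the start of Orc1 is that of its coding transcript in GENCODE M21, inside the interval that the deposited table lists for the gene. The letters TTTCCCGC, TTTGGCGC, TTTGCCGC, and TTTCGCGC, written forms of the element bound by E2F, the factor family that drives S-phase genes, were searched on both strands. At least 1 of them was found in 15 of the 33 members (45.5%), in 4.7% of the 9978 tested genes with a promoter entry, and in 2.26% of all 32851 promoters. CCAAT, searched in the same way, was found in 21 of the 33 members (63.6%) and in 43.5% of the tested genes with an entry. The 15 members with an E2F match were Mcm3, Mcm5, Mcm6, Mcm7, Orc1, Orc3, Cdc6, Cdt1, Gins3, Rfc3, Pola1, Pold1, Pold3, Pole2, and Lig1. Against NSCs, the median log2 fold change in EPSCs was 0.93 over the 15 members with a match, which ranged from -0.23 to 3.12, and 0.81 over the 18 without one, which ranged from 0.34 to 1.49, and in hybrid cells these medians were 0.88 and 0.89. In FPKM as deposited, of the 15 with a match, 11 were higher and 2 lower in EPSCs than in NSCs. All 18 without a match were higher, where 45.2% of all genes were higher and 41% lower. With libraries scaled to the same sum, Gins3, Rfc3, Pola1, and Pold1 of those with a match were called lower, and Pole2 was not called. Of those without a match, Pold2 was then lower, and Cdc45, Rfc1, Rfc4, Pola2, Prim1, and Rpa1 were not called. The rest of both sets stayed higher, where 30.7% of all genes were higher and 56.8% lower. As deposited, the medians were 0.11 and 0.11 in hybrid cells against EPSCs and 0.05 and 0.29 in EPSCs against ESCs, and none of these differences was tested. The promoters of 5 members with a match are given, since each holds at least 1 of these letter runs while their transcripts lay far apart: Orc1 and Cdt1 had the largest differences from NSCs, Pold3 differed most between hybrid cells and EPSCs, and Rfc3 and Pold1 went against most members. Each runs 5′ to 3′ along the gene, and capitals mark the matches, which appear as their reverse complement where they lie on the other strand. The positions are chr4:108579204-108579503, plus strand for Orc1, chr8:122567765-122568064, plus strand for Cdt1, chr7:100121453-100121752, minus strand for Pold3, chr5:151651159-151651458, minus strand for Rfc3, and chr7:44548766-44549065, minus strand for Pold1.
Orc1: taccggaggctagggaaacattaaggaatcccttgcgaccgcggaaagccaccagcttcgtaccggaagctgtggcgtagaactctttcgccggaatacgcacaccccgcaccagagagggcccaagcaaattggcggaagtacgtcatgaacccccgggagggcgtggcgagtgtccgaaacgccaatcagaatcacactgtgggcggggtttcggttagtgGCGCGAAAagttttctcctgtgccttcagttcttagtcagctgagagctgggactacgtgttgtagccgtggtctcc
Cdt1: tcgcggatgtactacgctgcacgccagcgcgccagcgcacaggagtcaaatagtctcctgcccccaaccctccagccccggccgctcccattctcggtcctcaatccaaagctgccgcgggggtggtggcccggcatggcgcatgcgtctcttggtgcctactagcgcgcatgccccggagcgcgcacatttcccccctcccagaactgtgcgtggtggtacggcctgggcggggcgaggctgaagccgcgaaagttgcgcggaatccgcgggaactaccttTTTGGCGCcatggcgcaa
Pold3: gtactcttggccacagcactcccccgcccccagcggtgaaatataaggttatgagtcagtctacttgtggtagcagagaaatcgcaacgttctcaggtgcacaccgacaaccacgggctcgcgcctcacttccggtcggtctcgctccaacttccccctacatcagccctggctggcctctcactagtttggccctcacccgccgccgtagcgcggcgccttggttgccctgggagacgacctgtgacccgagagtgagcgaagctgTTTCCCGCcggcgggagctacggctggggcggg
Rfc3: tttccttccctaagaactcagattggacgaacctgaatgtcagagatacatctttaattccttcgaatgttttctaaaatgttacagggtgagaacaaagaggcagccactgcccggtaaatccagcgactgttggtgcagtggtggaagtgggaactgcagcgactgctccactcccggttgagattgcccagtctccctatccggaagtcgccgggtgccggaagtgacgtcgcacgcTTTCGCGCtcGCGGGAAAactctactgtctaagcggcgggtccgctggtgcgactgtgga
Pold1: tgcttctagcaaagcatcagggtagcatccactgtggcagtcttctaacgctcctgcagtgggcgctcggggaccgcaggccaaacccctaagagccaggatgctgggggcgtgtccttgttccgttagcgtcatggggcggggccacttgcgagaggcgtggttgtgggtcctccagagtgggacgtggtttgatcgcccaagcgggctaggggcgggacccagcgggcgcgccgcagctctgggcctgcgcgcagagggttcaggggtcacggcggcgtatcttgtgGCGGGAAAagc
In Orc1 the match began 27 bases before the start, and in Cdt1 it lay within the transcribed part, from base 33. Rfc3 held a pair of matches, on opposite strands and 2 bases apart, across its start. Such matches describe letters in a window and not binding.

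The origin recognition complex, which marks origins, had the widest range of change against NSCs among these complexes, through Orc1. Orc1, its ATPase subunit and the one whose level follows the cell cycle, was at 4.64 and 4.41 FPKM in NSCs, 28.1 and 28.2 in ESCs, 48.3 and 45.9 in EPSCs, and 65.1 and 61.9 in hybrid cells. No group overlapped with another, and the hybrid cell libraries were the highest. Fold values here and below are ratios of mean FPKM, whereas log2 fold changes, SEs, and tests are on log2(FPKM + 1). Orc1 was 14-fold higher in hybrid cells than in NSCs (log2 fold change 3.54, SE 0.06, adjusted p = 3.36e-09 by limma) and 10.4-fold higher in EPSCs than in NSCs (3.12, SE 0.06, adjusted p = 5.36e-09), and these log2 values were 3.08 and 2.66 with libraries scaled to the same sum. It was also higher in hybrid cells than in EPSCs (0.42, SE 0.06, adjusted p = 0.0015) and in EPSCs than in ESCs (0.72, SE 0.06, adjusted p = 5.7e-05). The other 5 subunits were each higher in hybrid cells and in EPSCs than in NSCs. Their log2 fold changes were 0.80 to 1.22 and 0.81 to 1.49 in FPKM as deposited. They were also called higher under both other scalings. The ranges were 0.20 to 0.63 and 0.22 to 0.90 with libraries scaled to the same sum, and 0.69 to 1.43 and 0.66 to 1.42 with quantile normalization.

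Orc6, the subunit least similar to the rest, was lower in EPSCs than in ESCs where most of its complex was higher. It was at 98.7 and 101.5 FPKM in ESCs, 79.7 and 79.2 in EPSCs, 60.4 and 62.9 in hybrid cells, and 28.6 and 32.6 in NSCs. The 4 groups did not overlap, and ESCs stood highest. Orc6 was lower in EPSCs than in ESCs by a log2 value of -0.33 (SE 0.07, adjusted p = 0.00421 by limma), whereas Orc1, Orc3, Orc4, and Orc5 were higher, and it was lower in hybrid cells than in EPSCs (-0.36, SE 0.07, adjusted p = 0.00498), whereas Orc1 and Orc4 were higher and Orc2, Orc3, and Orc5 were not called. Orc5 had a log2 fold change of -0.26 there (adjusted p = 0.0611), which was called with libraries scaled to the same sum (-0.27, adjusted p = 0.0366). The subunit levels were most even in hybrid cells: the ratio of the highest to the lowest subunit was 3.91 ± 0.122 in hybrid cells, against 5.13 ± 0.141 in EPSCs, 8.62 ± 0.215 in ESCs, and 6.78 ± 0.86 in NSCs (SD, n = 2). Orc6 was the highest subunit in the other groups, while in hybrid cells Orc1 was highest in the first library and Orc6 in the second, and the lowest was Orc1 in NSCs and Orc3 elsewhere. The ratio of Orc1 to Orc2, added after the levels were seen, was 1.51 ± 0.0669 in hybrid cells, against 1.11 ± 0.0469 in EPSCs, 0.654 ± 0.0209 in ESCs, and 0.191 ± 0.0231 in NSCs. The groups did not overlap in either ratio, but with 2 libraries against 2, the smallest p of an exact permutation test is 0.33. Such ratios do not move when a library is scaled by a single factor, though they can under quantile normalization. Of the exon bases of Orc2, 29.8% also lie in Nif3l1 on the opposite strand, and the strand setting of the counting is not given in the sources used here, so its level is uncertain. Nif3l1 was at 43.8 and 41.2 FPKM in hybrid cells and was higher than in NSCs by 1.41 (adjusted p = 1.19e-06 by limma), the same direction as Orc2 (0.80).

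The loading factors followed. Cdt1, which brings Mcm2-7 to the origin, was at 23.3 and 21.4 FPKM in NSCs, 139.3 and 141.4 in ESCs, 90.7 and 102.5 in EPSCs, and 101.9 and 110.2 in hybrid cells. NSCs were the lowest, ESCs the highest, and EPSCs and hybrid cells overlapped. Cdt1 was 4.74-fold higher in hybrid cells than in NSCs (log2 fold change 2.2, SE 0.08, adjusted p = 9.7e-08 by limma), 4.32-fold higher in EPSCs than in NSCs (2.06, SE 0.08, adjusted p = 1.3e-07), and lower in EPSCs than in ESCs (-0.54, SE 0.08, adjusted p = 0.000753). With libraries scaled to the same sum, Cdt1 was higher than in NSCs by log2 values of 1.61 and 1.48. Gmnn was at 38.5 and 41.4 FPKM in NSCs, 129.4 and 124.8 in ESCs, 118.7 and 123.0 in EPSCs, and 121.4 and 108.8 in hybrid cells. The NSC libraries lay below all others, and hybrid cells overlapped with EPSCs. Gmnn was 3.03-fold higher in EPSCs than in NSCs (1.57, SE 0.07, adjusted p = 2.83e-07), and by a log2 value of 0.98 under that scaling. Cdc6, the ATPase that works with the origin recognition complex, was higher than in NSCs by 1.18 in hybrid cells and by 1.31 in EPSCs on the log2 scale, and did not pass the test between hybrid cells and EPSCs or between EPSCs and ESCs. Its differences from NSCs were 0.62 and 0.76 with libraries scaled to the same sum.

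Cdt1 and its inhibitor thus did not keep one ratio. Cdt1 to Gmnn was 0.926 ± 0.122 in hybrid cells, against 0.799 ± 0.0494 in EPSCs, 0.562 ± 0.0624 in NSCs, and 1.105 ± 0.0404 in ESCs (SD, n = 2). Hybrid cells, at 0.84 and 1.01, were above both EPSC libraries, at 0.764 and 0.834, but the lower of them by less than the distance within EPSCs. ESCs were the only group in which both libraries had more Cdt1 than Gmnn transcript per length. Each pair of groups compared was apart, at the smallest p the exact permutation test allows, 0.33.

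All 6 subunits of Mcm2-7, the ring that unwinds DNA, were higher than in NSCs, by log2 values of 0.73 to 1.33 in hybrid cells and 0.71 to 1.12 in EPSCs. With libraries scaled to the same sum, 5 of the 6 still were in each comparison and Mcm4 was not called. The log2 values were then 0.11 to 0.72 in hybrid cells and 0.10 to 0.51 in EPSCs. The sum of the 6 was 1091 ± 63.9 FPKM in hybrid cells, against 1069 ± 48.6 in EPSCs, 996 ± 10.8 in ESCs, and 538 ± 3.81 in NSCs. Within the ring, hybrid cells departed from EPSCs in opposite directions. Mcm6 was at 220 and 206 FPKM in hybrid cells and at 178 and 171 in EPSCs (log2 fold change 0.29, adjusted p = 0.00444 by limma), and Mcm3 was higher by 0.27 (adjusted p = 0.0244). Mcm2, at 150 and 140 FPKM against 181 and 170, was lower by -0.27 (adjusted p = 0.00698), and Mcm7, the most abundant subunit in every other group, was lower by -0.25 (adjusted p = 0.00952). The call of Mcm3 was lost in 7 of the 14 alternatives, with adjusted p up to 0.101, among them fits without either ESC library, either NSC library, the second EPSC library, or the first hybrid cell library. Mcm4 and Mcm5 overlapped between these groups. The ratio of the highest to the lowest subunit was smaller than in the origin recognition complex in every group, at 1.63 ± 0.109 in hybrid cells, against 1.58 ± 0.0131 in NSCs, 1.82 ± 0.118 in EPSCs, and 2.36 ± 0.0915 in ESCs, and hybrid cells overlapped with NSCs in it (exact permutation p = 1.0). For each FPKM of the origin recognition complex, NSCs had 5.71 ± 0.323 of Mcm2-7, and the 3 pluripotent groups had 4.16 to 4.36.

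**Figure D2:**
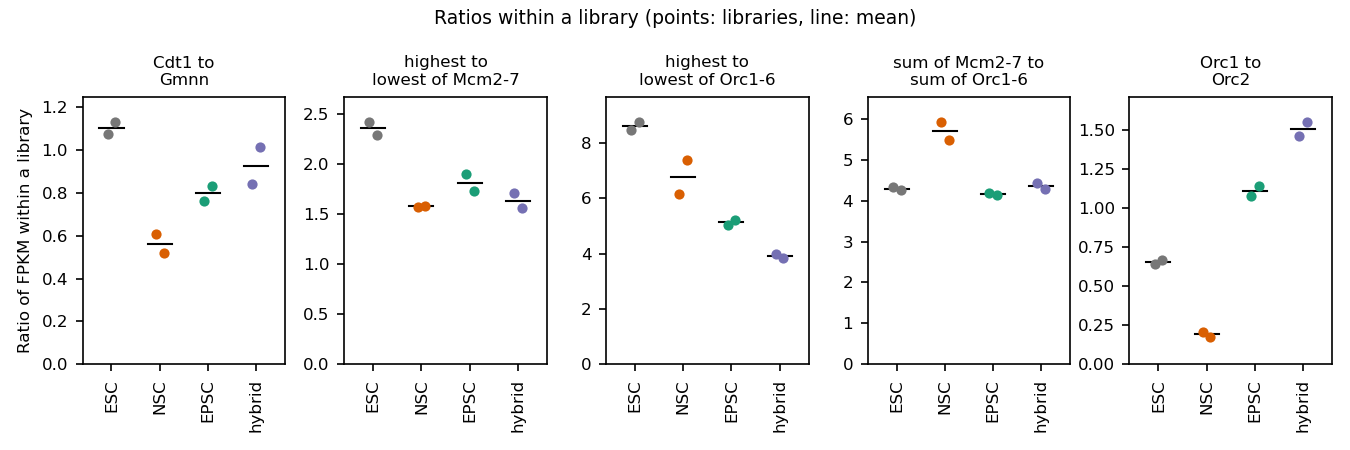
Ratios of FPKM within each of 8 libraries, as points by group with the mean as a line: Cdt1 to Gmnn, highest to lowest subunit of Mcm2-7 and of Orc1-6, sum of Mcm2-7 to sum of Orc1-6, and Orc1 to Orc2. NSCs are lowest for Orc1 to Orc2 and for Cdt1 to Gmnn, and hybrid cells have the smallest span within Orc1-6.

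Taking the 15 licensing genes as 1 set, 15 of 15 were higher than in NSCs in hybrid cells and in EPSCs, with medians of 1.17 and 1.12, against the 44.5% and 45.2% of all genes given above. With libraries scaled to the same sum, 14 of 15 still were in each comparison, whereas 30.3% of all genes were higher and 57.6% lower in hybrid cells, and 30.7% and 56.8% in EPSCs. The medians of the set were then 0.60 and 0.51, against -0.51 and -0.48 over all genes. The 20 genes of the fork were more divided. In hybrid cells 14 were higher than in NSCs, 1 was lower, and 5 were not called, with a median of 0.66. Under the same scaling these became 8 higher, 7 lower, and 5 not called, with a median of 0.05. In EPSCs 16 of the 20 were higher and 2 lower, with a median of 0.60, and 7 were higher and 5 lower under that scaling, with a median of -0.0. The difference between the sets was not tested, since the sets are lists chosen by hand.

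**Figure D3:**
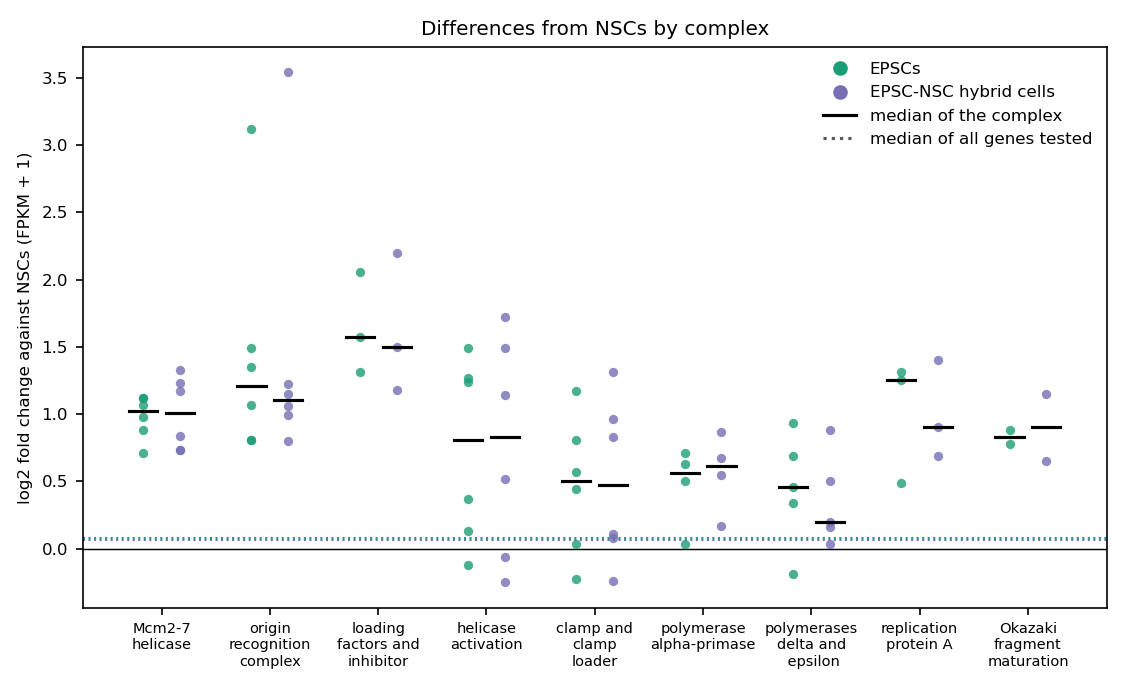
log2 fold change of FPKM + 1 against NSCs for each member by complex, in EPSCs and EPSC-NSC hybrid cells, with the median of each complex as a line and the median of all genes tested as dotted lines. The 3 complexes of licensing lie at 0.71 or above, whereas helicase activation, the clamp loader, and polymerases delta and epsilon reach down to the dotted lines or below. Polymerase alpha-primase does so in EPSCs, through Pola1.

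The factors that turn the loaded ring into a helicase fell into distinct behaviours. Mcm10, needed to start unwinding, was at 17.8 and 19.4 FPKM in NSCs, 45.2 and 43.8 in ESCs, 55.0 and 52.8 in EPSCs, and 69.8 and 58.0 in hybrid cells. The groups did not overlap, although the hybrid cell libraries differed by a ratio of 1.203, the largest among the members. Mcm10 was 3.44-fold higher in hybrid cells than in NSCs (log2 fold change 1.72, SE 0.09, adjusted p = 7.99e-07 by limma, and 1.14 with libraries scaled to the same sum), and against EPSCs it did not pass the test (0.24, adjusted p = 0.0695). Gins1 and Gins4 were also higher than in NSCs, by 1.49 and 1.14 in hybrid cells and by 1.27 and 1.24 in EPSCs. Scaling libraries to the same sum gave 0.90 and 0.54 in hybrid cells and 0.69 and 0.65 in EPSCs. Gins1 was also called in hybrid cells against EPSCs (0.22, adjusted p = 0.0392), a call lost in 8 of 14 alternatives with adjusted p up to 0.153, among them each fit without an ESC or EPSC library and the fit without the second hybrid cell library. Cdc45 was higher by 0.52 and 0.37, but these turned to the opposite sign when libraries were scaled to the same sum.

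Gins2 and Gins3 did not follow their partners in the 4-subunit GINS complex. Gins2 was at 47.2 and 51.9 FPKM in NSCs, 66.0 and 62.4 in ESCs, 46.0 and 44.6 in EPSCs, and 42.1 and 40.7 in hybrid cells. In FPKM as deposited, it was the only member below both parents in both hybrid cell libraries, a pattern found in 16.2% of all genes tested. Between hybrid cells and EPSCs, however, Gins2 did not pass the test (-0.13, adjusted p = 0.146 by limma), nor did it under either other scaling. When libraries were scaled to the same sum, Rfc1, Pold3, and Pole were called lower in hybrid cells than in both parents. Gins2 was lower in hybrid cells than in NSCs by a log2 value of -0.25 (SE 0.06, adjusted p = 0.00645 by limma), whereas 4 of the 6 activation factors were higher. This difference was -0.87 with libraries scaled to the same sum and -0.49 with quantile normalization. Under these scalings, Gins2 was also called lower in EPSCs than in NSCs (-0.73 and -0.42). Gse1 covers 67.3% of the exon bases of Gins2 on the opposite strand and was listed at up to 16.2 FPKM, so the level of Gins2 is uncertain where strand was not used. Gse1 was itself lower in hybrid cells than in NSCs (-0.74, adjusted p = 0.00354), the direction of Gins2. Gins3 was at 10.99 and 10.5 FPKM in ESCs, 7.84 and 6.69 in EPSCs, 6.56 and 5.95 in hybrid cells, and 6.38 and 6.72 in NSCs. ESCs stood above all others, and NSCs overlapped with both EPSCs and hybrid cells in FPKM as deposited. Its direction against NSCs depended on the scaling: Gins3 was called lower in hybrid cells and EPSCs with libraries scaled to the same sum (-0.64 and -0.44) and higher with quantile normalization (0.29 and 0.47). Gins3 was lower in EPSCs than in ESCs (-0.51, SE 0.09, adjusted p = 0.00238), as were Gins2 (-0.49) and Gins4 (-0.31), whereas Gins1 was higher (0.36, adjusted p = 0.00338).

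At the fork, Pcna was at 278 and 279 FPKM in NSCs, 323 and 324 in ESCs, 494 and 481 in EPSCs, and 495 and 494 in hybrid cells. It was higher than in NSCs by a log2 value of 0.83 in hybrid cells and 0.81 in EPSCs, and higher in EPSCs than in ESCs by 0.59 (adjusted p = 4.8e-05 by limma), and between hybrid cells and EPSCs it did not pass the test (0.02, SE 0.05). With quantile normalization, Pcna was higher than in NSCs by 0.07 in hybrid cells, where the call was lost (adjusted p = 0.143 by limma), and by 0.11 in EPSCs. The 5 subunits of replication factor C, which opens this clamp and places it on DNA, did not move as a unit in any comparison.

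Rfc1, the large subunit, was at 55.9 and 51.8 FPKM in EPSCs, 39.8 and 36.7 in hybrid cells, 36.2 and 35.9 in NSCs, and 28.3 and 28.4 in ESCs. EPSCs stood apart at the top, and hybrid cells lay just above NSCs in FPKM as deposited. With libraries scaled to the same sum, Rfc1 was lower in hybrid cells than in NSCs (-0.53, adjusted p = 4.15e-05 by limma), and its difference between EPSCs and NSCs, 0.57, became -0.04 (adjusted p = 0.564). Rfc1 was higher in EPSCs than in ESCs by a log2 value of 0.90 (SE 0.06, adjusted p = 3.1e-05 by limma), the largest change among the members there, and was lower in hybrid cells than in EPSCs by -0.48 (SE 0.06, adjusted p = 0.0012). Rfc4, a small subunit, went the other way, at 80.5 and 68.2 FPKM in hybrid cells against 56.1 and 47.1 in EPSCs, 36.0 and 35.1 in ESCs, and 36.3 and 39.0 in NSCs. Both hybrid cell libraries were above all others. Rfc4 was 1.44-fold higher in hybrid cells than in EPSCs (0.52, SE 0.10, adjusted p = 0.00658), and its libraries within each of these groups differed more than those of most members. Eif4a2 shares 12.7% of the exon bases of Rfc4 on the opposite strand. Eif4a2 was listed at 243 and 278 FPKM in hybrid cells and 308 and 303 in EPSCs. It was lower in hybrid cells by a log2 value of -0.23 (adjusted p = 0.0251 by limma), the direction opposite to that of Rfc4. Whether fragments of Eif4a2 entered the level of Rfc4 was not tested.

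Rfc3 and Rfc5, also small subunits, were the clamp loader genes that fell in EPSCs against ESCs. Rfc5 was at 129.4 and 126.2 FPKM in ESCs, 89.0 and 82.3 in EPSCs, 99.8 and 89.4 in hybrid cells, and 38.0 and 37.1 in NSCs. Hybrid cells lay just above EPSCs without overlap, and ESCs were far above both. Rfc5 was lower in EPSCs than in ESCs by a log2 value of -0.57 (SE 0.07, adjusted p = 0.000318 by limma). Rfc3 was at 58.0 and 61.3 FPKM in ESCs, 55.2 and 58.2 in NSCs, 47.6 and 48.6 in EPSCs, and 47.0 and 48.7 in hybrid cells. EPSCs and hybrid cells overlapped, and both lay below the other groups. Rfc3 was lower in EPSCs than in ESCs (-0.30, SE 0.05, adjusted p = 0.00234), lower in EPSCs than in NSCs (-0.23, SE 0.05, adjusted p = 0.00469), and lower in hybrid cells than in NSCs (-0.24, SE 0.05, adjusted p = 0.00403). The differences of Rfc3 from NSCs were larger under both other scalings. They were -0.84 in EPSCs and -0.86 in hybrid cells with libraries scaled to the same sum, and -0.53 and -0.50 with quantile normalization. Rfc2 in FPKM as deposited was called only in EPSCs against ESCs among the 4 comparisons (0.24, adjusted p = 0.0074), a call lost without the second ESC library (adjusted p = 0.0595). Against NSCs, Rfc2 was called lower under both other scalings, by -0.51 with libraries scaled to the same sum and -0.19 with quantile normalization in hybrid cells, and by -0.58 and -0.28 in EPSCs.

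DNA polymerase alpha-primase, which begins each new strand, was near the NSC level in its catalytic subunit and above it in the rest, in FPKM as deposited. Pola1 was at 20.9 and 22.5 FPKM in NSCs, 23.7 and 20.7 in EPSCs, 25.6 and 23.6 in hybrid cells, and 15.4 and 16.1 in ESCs. It did not pass the test against NSCs in EPSCs or in hybrid cells, and it was higher in EPSCs than in ESCs (log2 fold change 0.46, adjusted p = 0.0022 by limma). Pola2, Prim1, and Prim2 were higher than in NSCs by 0.55 to 0.87 in hybrid cells and 0.50 to 0.71 in EPSCs, but with libraries scaled to the same sum, Pola2 in hybrid cells was the one of these calls that remained, the sign turned for Prim1 in hybrid cells and for Prim2 in EPSCs, and Pola1 was lower than in NSCs in both (-0.43 and -0.57). Prim2, the large primase subunit, was the one called between hybrid cells and EPSCs (0.17, adjusted p = 0.0436), and this call was lost in 11 of 14 alternatives, with adjusted p up to 0.163, each fit without a library among them.

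Pold3, an accessory subunit of the lagging-strand polymerase delta, changed most between hybrid cells and EPSCs. It was at 39.6 and 43.2 FPKM in EPSCs, 22.9 and 24.8 in hybrid cells, 31.1 and 32.1 in ESCs, and 21.3 and 21.3 in NSCs. Hybrid cells lay below ESCs and EPSCs and just above NSCs in FPKM as deposited. Pold3 was 1.74-fold lower in hybrid cells than in EPSCs (log2 fold change -0.77, SE 0.07, adjusted p = 0.000294 by limma), and in hybrid cells against NSCs it did not pass the test (0.16, adjusted p = 0.0573) and was called lower with libraries scaled to the same sum (-0.45, adjusted p = 0.00121). Pole2, an accessory subunit of polymerase epsilon, was higher than in NSCs by 0.88 in hybrid cells and by 0.69 in EPSCs, where the call was lost with libraries scaled to the same sum (0.11, adjusted p = 0.373). Pole, the catalytic subunit of the leading-strand polymerase epsilon, was also lower in hybrid cells than in EPSCs (-0.26, adjusted p = 0.00692), whereas Pold2 was higher (0.16, adjusted p = 0.0388), a call lost in 8 of 14 alternatives, with adjusted p up to 0.143, among them each fit without an ESC, EPSC, or hybrid cell library. Pold1, the catalytic subunit of polymerase delta, was at 47.7 and 49.8 FPKM in NSCs, 39.6 and 45.8 in EPSCs, 48.6 and 51.0 in hybrid cells, and 42.6 and 39.9 in ESCs. EPSCs lay below NSCs, with a wide gap between their own libraries, and hybrid cells overlapped with NSCs in FPKM as deposited. Pold1 was lower in EPSCs than in NSCs by -0.19 (SE 0.08, adjusted p = 0.0487), a call lost in 9 alternatives, among them each fit without 1 library except the second EPSC library, and without the first EPSC library it was -0.09 (adjusted p = 0.28). It was larger with libraries scaled to the same sum (-0.80, adjusted p = 6.76e-05) and with quantile normalization (-0.47, adjusted p = 0.000851), and under these scalings Pold1 was also called lower in hybrid cells than in NSCs, by -0.59 and -0.22.

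Replication protein A, the trimer that coats single-stranded DNA, did not move as a unit between hybrid cells and EPSCs. Rpa1, its large subunit, was at 145.8 and 152.0 FPKM in hybrid cells against 111.6 and 112.2 in EPSCs, 78.4 and 80.3 in NSCs, and 70.8 and 68.6 in ESCs. The groups did not overlap, and hybrid cells stood highest. Rpa1 was higher in hybrid cells than in EPSCs by a log2 value of 0.41 (SE 0.05, adjusted p = 0.000825 by limma). Rpa3, the small subunit, was at 67.6 and 71.4 FPKM in hybrid cells against 100.1 and 105.0 in EPSCs, 39.1 and 46.3 in NSCs, and 60.4 and 57.7 in ESCs. Hybrid cells lay between their parents in FPKM as deposited, whereas with libraries scaled to the same sum the difference from NSCs, 0.69, became 0.08 (adjusted p = 0.394 by limma). Rpa3 was lower in hybrid cells than in EPSCs by -0.56 (SE 0.08, adjusted p = 0.00205) and higher in EPSCs than in ESCs by 0.79 (SE 0.08, adjusted p = 0.000187). Rpa2, the middle subunit, was higher than in NSCs by 1.40 in hybrid cells and 1.31 in EPSCs, and did not pass the test between hybrid cells and EPSCs or between EPSCs and ESCs. Its differences from NSCs were 0.79 and 0.71 with libraries scaled to the same sum.

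Both genes of Okazaki fragment maturation, the flap nuclease Fen1 and the ligase Lig1, were higher than in NSCs, by log2 values of 1.15 and 0.65 in hybrid cells and 0.88 and 0.78 in EPSCs. With libraries scaled to the same sum, Lig1 was not called in hybrid cells (0.03, adjusted p = 0.557 by limma) and was higher by 0.18 in EPSCs. Fen1 was then higher by 0.54 in hybrid cells and 0.28 in EPSCs. Fen1 was higher in hybrid cells than in EPSCs (0.27, adjusted p = 0.0161 by limma) and in EPSCs than in ESCs (0.38, adjusted p = 0.00229), but 78.8% of its exon bases also lie in Gm10143 on the opposite strand, as do 5.37% in Tmem258, listed at up to 354 FPKM, so its level is uncertain where strand was not used. The call of Fen1 between hybrid cells and EPSCs was lost in 3 of the 14 alternatives. These were the fit of the 2 groups alone and the fits without the second EPSC or the first hybrid cell library. Lig1 did not pass the test in either comparison.

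**Figure D4:**
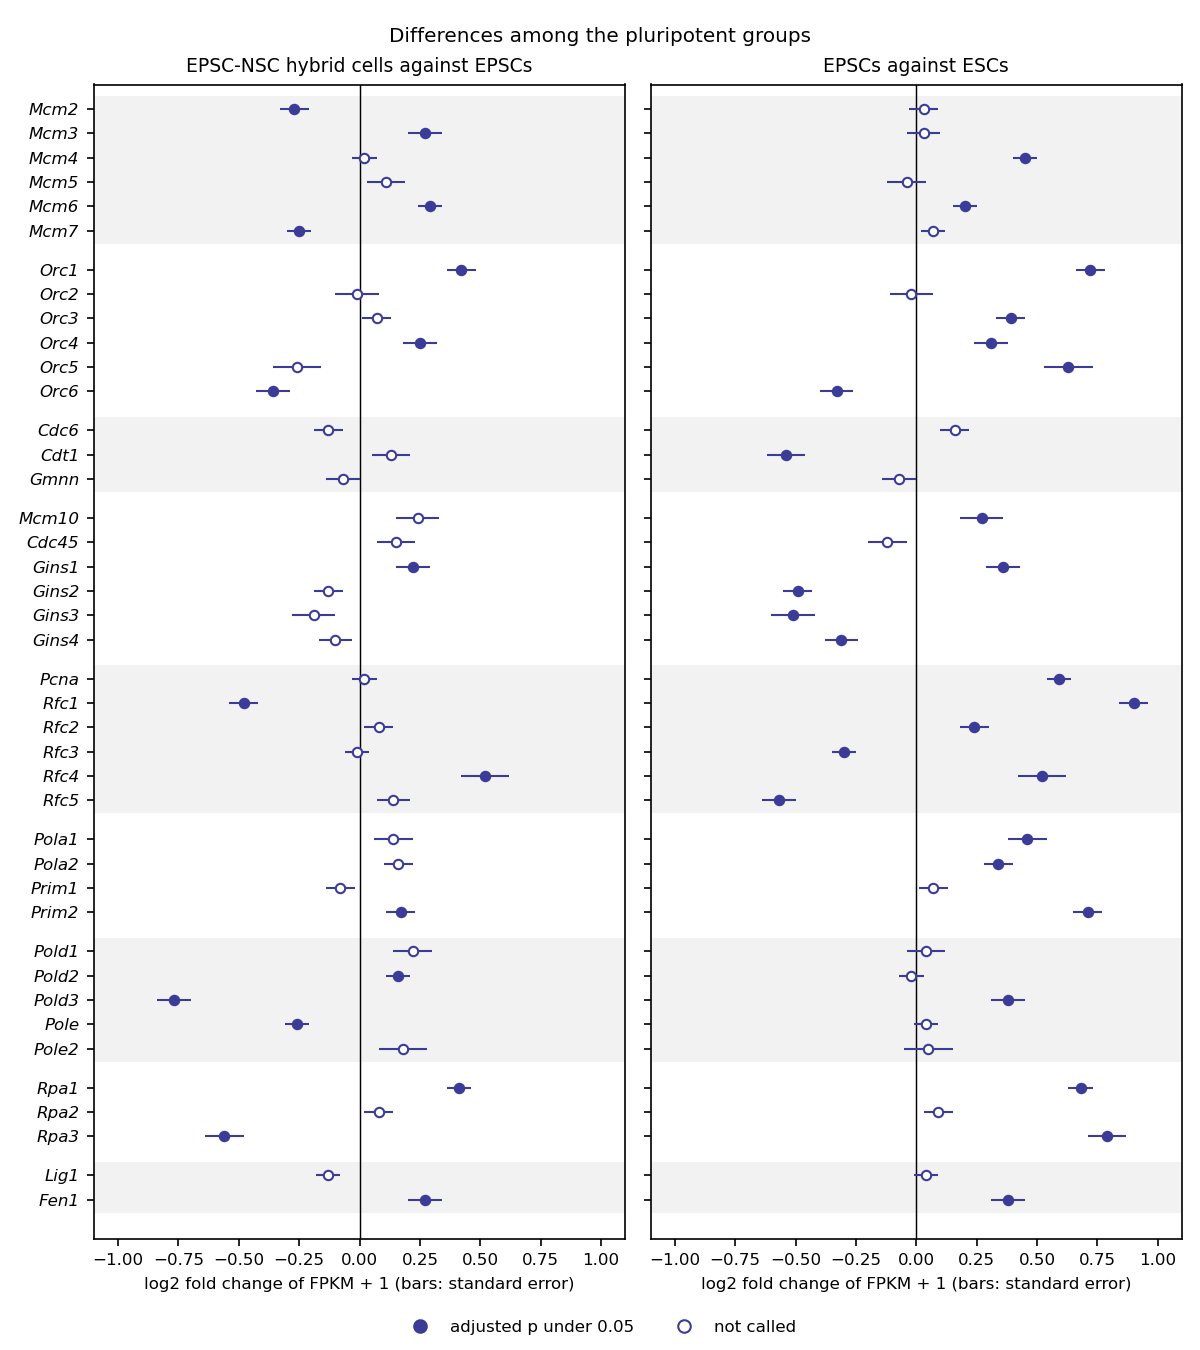
log2 fold change of FPKM + 1 with its standard error for the 41 members by complex, in EPSC-NSC hybrid cells against EPSCs (left) and in EPSCs against ESCs (right), with filled points for an adjusted p under 0.05. Pold3 is the lowest and Rfc4 the highest at left, and Rfc1 the highest and Rfc5 the lowest at right.

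The place of hybrid cells between their parents was expressed on the log2 scale, with NSCs at 0 and EPSCs at 1, for the 37 members called between the parents. The median was 1.06, with quartiles of 0.828 and 1.25, and 33 of the 37 (89.2%) lay nearer to EPSCs than to NSCs. Over all 11409 genes called between the parents, the median was 0.967 and 87.9% lay nearer to EPSCs, so the share of the members was near that of all genes. Beyond the EPSC level lay 22 of the 37 (59.5%), against 43.5% of all genes called, highest Rfc4 at 2.17, Rpa1 at 1.83, Pold2 at 1.48, and Cdc45 at 1.40, but for these 4 the difference between the parents itself turned sign with libraries scaled to the same sum. Nearest to NSCs were Pold1 at -0.152, Rfc1 at 0.147, Pold3 at 0.168, and Pole at 0.443, and for Rfc1 and Pole, too, the difference between the parents turned sign under that scaling. By libraries alone, in FPKM as deposited, hybrid cells were above both parents in 15 members, between them in 11, and below both in 1. The shares of all genes tested were 18.7%, 28.9%, and 16.2%. In 14 members, both hybrid cell libraries were the highest of all 8, against 14.1% of all genes. These counts depend on the scale of the NSC libraries. Scaled to the same sum, Rfc1, Pold3, and Pole were called lower in hybrid cells than in both parents, and Pold2 was not called against NSCs. No test was made of these positions, since the 3 means enter each of them.

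Genes listed as markers of other cells also differed in these comparisons. All 14 fibroblast markers listed for the feeder cells were higher in hybrid cells than in EPSCs, and their sum was 372 and 277 FPKM in hybrid cells against 97.96 and 94.95 in EPSCs, 15.3 and 16.9 in ESCs, and 15.9 and 17.1 in NSCs. One of them, Postn, is also used in the study as a gene of EPSCs. The study also reported collagen fibril organization among the terms higher in EPSCs and in hybrid cells than in ESCs. The highest of the 14 markers in hybrid cells were Col1a2 and Col1a1, at 57.7 and 53.6 FPKM. In NSCs, 11 of the 14 were under 1 FPKM, and Col1a2 was listed at 0. Of the 10 neural stem markers, Vim (log2 fold change 1.01) and Egfr (0.82) were higher in hybrid cells than in EPSCs, Nes (-0.68), Olig2 (-0.54), and Slc1a3 (-0.85) were lower, and 5 were not called. Whether feeder cells or the EPSCs and hybrid cells themselves expressed the fibroblast markers was not tested. The part of other cells in the differences of replication genes between hybrid cells and EPSCs and between EPSCs and ESCs was not tested. In bulk RNA, a larger share of cells and more RNA per cell cannot be told apart.

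The remaining genes of the pathway were read from a list of 52. Against NSCs, 32 were higher and 10 lower in hybrid cells (median 0.34), and 31 were higher and 12 lower in EPSCs (median 0.45), but with libraries scaled to the same sum these became 15 higher and 28 lower (median -0.27) and 16 higher and 24 lower (median -0.14). The shares of all genes higher and lower were those given for the members, 44.5% and 42.0% in hybrid cells and 45.2% and 41% in EPSCs, and 30.3% and 57.6% and 30.7% and 56.8% with libraries scaled to the same sum. The genes named next against NSCs kept their direction and call under both other scalings. Dbf4, the activator of the Cdc7 kinase that fires licensed origins, was higher in EPSCs than in NSCs by a log2 value of 2.28, and Ticrr, which helps to load Cdc45, was higher in hybrid cells than in NSCs by 2.19. Cul4b, a scaffold of the ligase that degrades Cdt1 in S phase, was higher by 2.22 in hybrid cells and 2.27 in EPSCs. Pold4, the smallest subunit of polymerase delta, was lower by -2.51 and -2.67, at 40.2 FPKM in NSCs and 5.53 to 6.32 FPKM in the 3 pluripotent groups, and Top2b, a topoisomerase also found in non-dividing cells, was lower by -2.70 and -2.45. Between hybrid cells and EPSCs, 7 were higher and 12 lower, against 22.5% and 21.9% of all genes, among them the histone chaperones Rbbp4 (0.42) and Chaf1b (0.31), the firing factor Mtbp (-0.84), and the ribonucleotide reductase subunit Rrm1 (-0.68). In EPSCs against ESCs, 27 were higher and 9 lower, against 33.7% and 27.3% of all genes, with Dna2, a flap nuclease and helicase, at 1.27, Tk1, the thymidine kinase, at 0.80, the ubiquitin ligase activator Fzr1 at -1.01, and the clamp loader subunit Chtf18 at -0.74.

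The E2F and pocket protein genes, which govern transcription of many S-phase genes, were also listed. Of 13 such genes, 11 were lower and 2 higher in hybrid cells than in NSCs, and 8 were lower and 3 higher in EPSCs, where 42.0% and 41% of all genes were lower. Under the scaling to the same sum, 11 were lower and 1 higher in each, where 57.6% and 56.8% of all genes were lower. The higher genes in hybrid cells were E2f1 (log2 fold change 0.65, and 0.07 with adjusted p = 0.577 by limma under that scaling) and E2f4 (1.69), and the largest fall was that of Rb1 (-2.54), genes named here after their values were seen. Of 24 genes of mitosis, 12 were higher and 7 lower in hybrid cells than in NSCs, with a median of 0.16, and 13 were higher and 4 lower in EPSCs, with a median of 0.26, where 44.5% and 45.2% of all genes were higher. With libraries scaled to the same sum, 7 were higher and 15 lower in hybrid cells and 6 and 16 in EPSCs, and the medians were -0.46 and -0.35, against -0.08 and -0.06 with quantile normalization. The members' medians in the same comparisons were 0.27 and 0.25 under the scaling to the same sum and 0.69 and 0.58 with quantile normalization.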

How the data were processed

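The authors prepared stranded poly-A libraries (TruSeq), trimmed reads with skewer, aligned them to mm10 with STAR 2.7.9a, and deposited FPKM from Cuffnorm of Cufflinks 2.2.1. The annotation, the strand setting, and the library normalization of Cuffnorm are not given in the sources used here, and 0 columns belonged to other samples. FPKM are not counts, so limma 3.58.1 (R 4.3.3, eBayes with trend, two-sided) was fitted to log2(FPKM + 1) of all 8 libraries (4 residual and 3.25 prior degrees of freedom) for genes with a mean of at least 1 FPKM in a group, with Benjamini-Hochberg adjustment over 13239 genes and calls under 0.05. Ratios were compared by two-sided exact permutation. Depth was derived from FPKM steps of 2247 genes with an assumed fragment of 200 bases and covers counting error only. Exon overlaps are from GENCODE M21. The members and lists were chosen with earlier results of these data known. Per comparison, library values were given for the 3 members with the largest called, non-overlapping change in each direction and for members called against most of their complex. Of the other pathway genes, the 2 with the largest change in each direction were named. Pcna, Gmnn, Gins1, Mcm2, Mcm6, Pola1, and others given outside this rule complete the account of a complex. The 14 alternatives to the fit were an added constant of 0.1, no filter, FPKM scaled to a sum of 1000000 or quantile-normalized, only the 2 groups compared, the replicate number as a block, and each library left out, and the thresholds of the study's rule were also varied.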

Additional observations from a re-analysis of the deposited data

How the results depend on the processing

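The 40 values of genes named by rule kept their direction and call in 551 recomputations, and Pold1 in EPSCs against NSCs lost its call in 9 (adjusted p of 0.0537 to 0.28 by limma). Of all members called, 26 of 35 in hybrid cells against NSCs, 25 of 37 in EPSCs against NSCs, 8 of 17 in hybrid cells against EPSCs, and 22 of 26 in EPSCs against ESCs held their call and direction in all 14 alternatives. In the last comparison, Mcm10 lost it in 9, Mcm6 in 4, and Orc4 and Rfc2 in 1. In hybrid cells against EPSCs, 4 members were higher and 4 lower in a fit of these 2 groups alone, where 3388 genes were called in place of 5881 (14.5% higher and 14.6% lower), and 6 to 8 were higher with 1 library left out, where 18.2% to 21.5% of all genes were. In hybrid cells against NSCs, 9 members were lower with libraries scaled to the same sum and 5 with quantile normalization, where 57.6% and 41.1% of all genes were, with medians of 0.27 and 0.69. In EPSCs against NSCs, the members lower were 7 and 4 under these scalings, where 56.8% and 40.6% of all genes were, 1 without the filter (32.8%), 1 in the fit of 2 groups (42.3%), and 1 to 2 with 1 library left out (38.8% to 41.7%), and the median was 0.25, 0.58, and 0.80 to 0.89 with 1 library left out. In EPSCs against ESCs, quantile normalization gave 12 lower members, where 29.1% of all genes were lower, and a median of 0.01. Among the lower members were Mcm2, Mcm3, Mcm5, and Mcm7, which were not called in FPKM as deposited. With both thresholds of the study's rule at 2, 17 members passed in hybrid cells and 16 in EPSCs against NSCs, where 53.9% and 53.2% of the genes that could pass did. With both thresholds at 3 and libraries scaled to the same sum, 2 members passed in hybrid cells and 1 in EPSCs against NSCs. The shares of the genes that could pass were then 41% and 40.3%. The causes of these shifts were not tested. Replicate numbers are shared between groups, but the labels do not say that a number marks a shared batch or day, and with 2 pairs the data do not settle it: the correlation of their deviations was 0.28 for hybrid cells and EPSCs and -0.017 to 0.069 for the other pairs. With the number as a replicate block, members higher and lower were 10 and 8, 34 and 2, 35 and 2, and 19 and 7 in the order hybrid cells against EPSCs, hybrid cells against NSCs, EPSCs against NSCs, and EPSCs against ESCs, where the shares of all genes were 23.1% and 22.7%, 44.7% and 42.2%, 45.2% and 41.2%, and 34.2% and 28.1%. Depth limited no member, whereas 2 libraries of 1 line in each group limited every test.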
